A study of Mus musculus with 30 samples.

Results

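Hearts of non-transgenic mice under pressure overload were split by the level of Nppb, the gene for brain natriuretic peptide, and compared across all genes. High hearts had more than 500 CPM of Nppb in the deposited values (CPM, counts per 1e+06 library counts) and low hearts 500 or less. That gave 5 high and 5 low hearts among the 10 non-transgenic TAC libraries, out of 30 libraries in all. Transverse aortic constriction (TAC) narrows the aorta by surgery and loads the left ventricle with pressure.

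The study sequenced left ventricular RNA in 4 groups. The high and low hearts compared here had the genotype NTG (non-transgenic, called wildtype in the titles) and 8 weeks of TAC. The 10 TG hearts used for a separate test carried the hRXFP1 transgene, an RXFP1 overexpression that the series title calls cardiomyocyte specific, and also had 8 weeks of TAC. The 5 Sham hearts were NTG and had the control operation. The labels give no promoter, strain, age or sex for any group, and they do not say that replicates are separate animals, so p-values measure the spread between these samples.

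The deposited Nppb values were 1680, 1431, 613, 702 and 1231 CPM in high hearts 2, 3, 5, 8 and 10, against 269, 394, 287, 306 and 267 CPM in low hearts 1, 4, 6, 7 and 9. Sham hearts had 164 to 309 CPM. The values nearest the threshold were 613 CPM just above it (replicate 5) and 394 CPM just below it (replicate 4). In the order given here, all later lists of 5 high and 5 low values keep these replicate numbers. Because the same libraries chose the classes, every high against low difference in gene expression is a description without a p-value, and Nppb is left out of the counts. The labels hold no measure of heart function, so the names decompensating and milder remodelling were not checked, and the hearts are called high and low by Nppb alone.

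Natriuretic peptides are hormones that heart muscle cells release under wall stress, and they promote salt excretion and vessel relaxation. Pressure overload also brings back genes of the fetal heart, turns resident fibroblasts into matrix-producing myofibroblasts, and shifts energy metabolism away from fatty acids. Postn and Col1a1 mark activated fibroblasts and fibrillar collagen.

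Library totals of the 30 libraries ran from 9231678 to 13093351 counts. High libraries were deeper, with a mean of 11819377 counts against 10117797 in low libraries (exact permutation test, two-sided, p = 0.0159, with 0.00794 the smallest p possible). The 10 most abundant genes took 9.46 to 11.8% of the counts in high hearts and 11.8 to 12.7% in low hearts. The number of genes with a count was 16213 to 16492 in high libraries, 16020 to 16161 in low libraries and 15865 to 16429 in Sham libraries, so high and low libraries did not overlap. The part of depth in this was not tested. A number of 100 or more in the library's name, which may mark a batch, occurred in 2 of 5 high and 1 of 5 low libraries (Fisher's exact test, two-sided, p = 1). The T cell genes Cd3e and Cd8a were at most 1.41 and 2.81 CPM in the TAC hearts, while 1 Sham heart, replicate 5, stood apart with 17.1 and 42.2 CPM. Counts of genes set against Sham are therefore given with and without it, while Sham ranges cover all 5 hearts. Sham replicates 1 to 4 had name numbers of 103, 105, 113 and 114, and replicate 5 had 27. Most TAC hearts had numbers under 100, and the part of this in differences from Sham was not tested.

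A gene was called when all 5 high hearts lay on one side of all 5 low hearts, in CPM scaled by the trimmed mean of M-values (TMM), and the fitted difference was at least 2-fold. Of 13110 genes, 321 (2.45%) were called higher and 137 (1.05%) lower in high hearts, 458 (3.49%) in all. Without the fold minimum, 1002 genes (7.64%) lay entirely higher and 1009 (7.7%) entirely lower. These shares come from the contrast that Nppb itself defined, and nothing is read from their size. In short gene lists, no call or a single one is near the share over all genes. With counts thinned to the smallest library, 429 genes were called, and 413 of them belonged to the 458. Among libraries with a name number under 100 (3 high and 4 low), 455 of the called genes could be fitted, all with the same direction and 355 at 2-fold or more. Leaving out replicate 5 gave 224 genes lower, and leaving out replicates 5 and 8 together gave 580 higher and 346 lower.

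The 5 high hearts were not alike. Over the 321 genes called higher, the median log2 ratio to the low mean was 1.5 in replicate 2, 1.39 in replicate 3, 0.84 in replicate 5, 0.97 in replicate 8 and 1.83 in replicate 10. The same medians over the 137 genes called lower were -1.62, -1.27, -0.78, -0.90 and -1.63. These genes were picked by the split, so the values only describe the spread among high hearts. Replicates 5 and 8 had the medians nearest 0 in both sets. Replicate 10 had the top value in 209 of the 321 genes and was also the deepest library of the series.

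**Figure D1:**
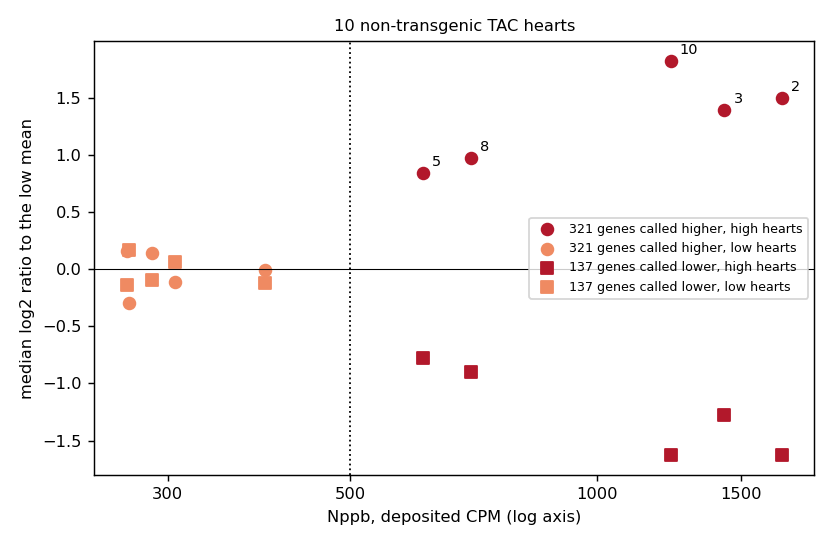
Median log2 ratio to the mean of the low hearts (vertical axis) against deposited Nppb CPM (horizontal log axis) for the 10 non-transgenic TAC hearts, with circles for the 321 genes called higher and squares for the 137 called lower. The numbers are replicates, the dotted line is the 500 CPM threshold, and replicates 5 and 8 lie nearest the low hearts in both sets.

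Genes of the hypertrophic response were higher in high hearts. Of 24 tested members of the hypertrophy list, 10 were called higher and none lower, and the list's median log2 fold change was 0.85 against 0.0024 over all genes. Nppa, which encodes atrial natriuretic peptide, had 9454, 9002, 7066, 5661 and 8260 CPM in high hearts, against 386, 930, 984, 804 and 1609 CPM in low hearts. Sham hearts had 239 to 461 CPM. The classes did not overlap, and the log2 fold change was 3.07 ± 0.33 (SE, edgeR fit, n = 5 each, as for all later fold changes).

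Myh7, the slow beta myosin heavy chain of the fetal ventricle, had 4028, 3297, 1372, 1780 and 3946 CPM in high hearts, against 810, 804, 1083, 785 and 931 CPM in low hearts. Its log2 fold change was 1.71 ± 0.29, and 3 high hearts stood well above the other 2. Myh6, the adult alpha myosin heavy chain, had 7317 to 16236 CPM in high hearts and 17488 to 22034 CPM in low hearts, a log2 difference of -0.57 ± 0.18 with no overlap. Ankrd1, a stretch-responsive ankyrin repeat protein of the sarcomere and nucleus, had 7756 to 10211 CPM in high hearts, 2311 to 5042 CPM in low hearts and 1008 to 2300 CPM in Sham hearts. Xirp2, an actin-binding protein of the intercalated disc, and Fhl1, a LIM protein of the sarcomere, had log2 fold changes of 2.01 ± 0.24 and 1.92 ± 0.29. For both, the low hearts overlapped the Sham hearts.

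Acta1, skeletal alpha-actin and a member of the same fetal set, did not separate the classes. It had 10423, 14702, 11029, 9747 and 7512 CPM in high hearts, against 1986, 5081, 7620, 1166 and 8108 CPM in low hearts. Low hearts 6 and 9 reached the lowest high heart, while Sham hearts had 550 to 1301 CPM. Low hearts 1 and 7 were close to the Sham level and the other low hearts well above it.

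Sprr1a, a small proline-rich protein induced by stress in heart muscle cells, had the highest fold of the genes chosen by rank. It had 93.8, 45.3, 12.5, 12 and 249 CPM in high hearts, against 0.187, 0.194, 0.764, 0.799 and 1.87 CPM in low hearts, which rests on 38 counts over the 5 low libraries. The log2 fold change was 6.75 ± 1.25, with 5.74 when replicate 10 was left out and 7.42 when replicate 9 was.

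**Figure D2:**
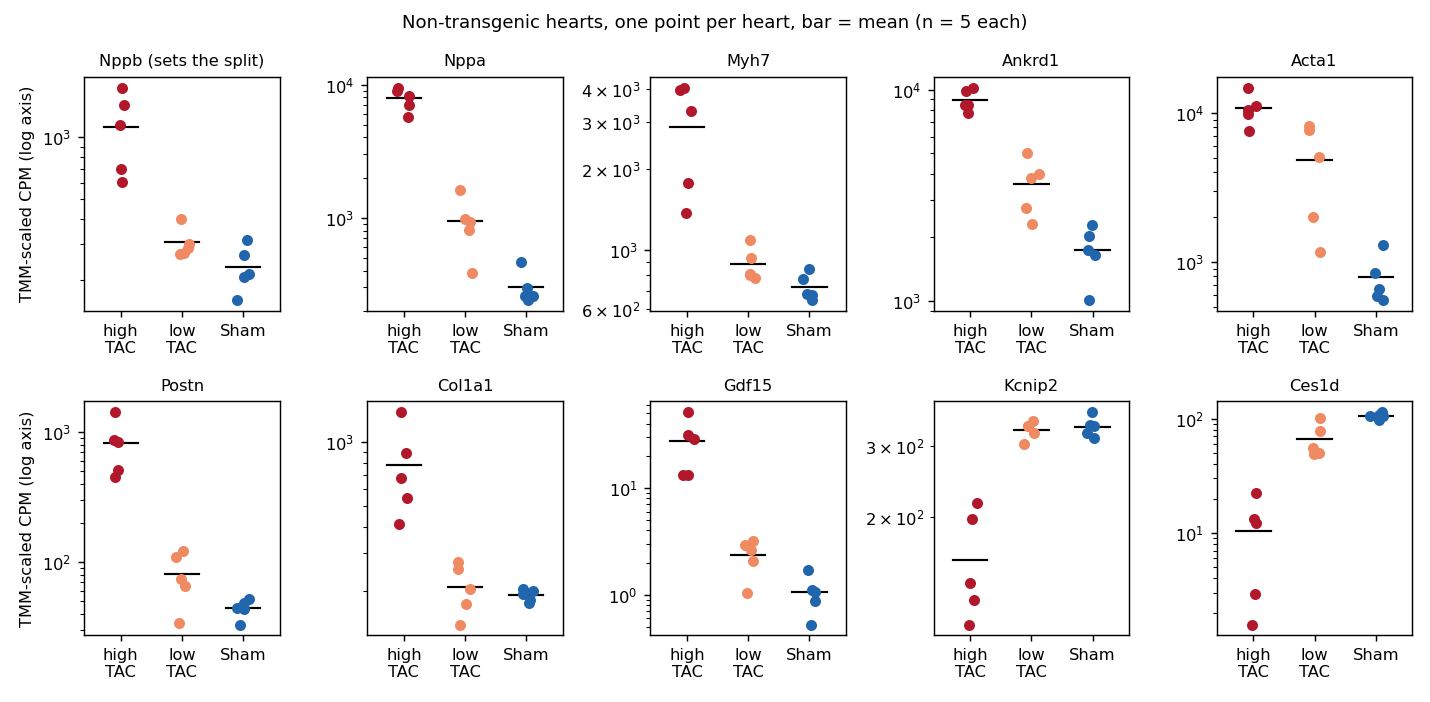
TMM-scaled CPM (vertical log axis, different in each panel) of 10 genes in the 5 high TAC, 5 low TAC and 5 Sham hearts, with 1 point per heart and a bar at the mean. All genes but Acta1 have no overlap between high and low hearts, and Nppb is the gene that set the split.

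The windows before the starts of 5 of these genes are shown because known motifs of load-responsive heart genes lie in them. Capitals mark the MCAT motif (CATTCC, bound by TEAD factors) in Myh7 and Ankrd1, the CArG box (bound by serum response factor) in Fhl1, and the AP-1 motif (TGANTCA, bound by Fos and Jun proteins) in Sprr1a and Xirp2. Both strands were searched, so CATTCC also appears as GGAATG. The sequences are the 250 bases before the first-listed start in RefSeq, build GRCm38.p6. They are Myh7 at chr14:54994627-54994876 (minus strand), Ankrd1 at chr19:36119845-36120094 (minus), Fhl1 at chrX:56779433-56779682 (plus), Sprr1a at chr3:92485882-92486131 (minus) and Xirp2 at chr2:67445752-67446001 (plus).
Myh7: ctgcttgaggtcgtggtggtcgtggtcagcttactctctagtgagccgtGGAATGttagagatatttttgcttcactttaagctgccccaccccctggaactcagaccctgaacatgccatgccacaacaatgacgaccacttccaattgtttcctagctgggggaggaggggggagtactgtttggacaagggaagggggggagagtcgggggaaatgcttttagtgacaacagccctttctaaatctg
Ankrd1: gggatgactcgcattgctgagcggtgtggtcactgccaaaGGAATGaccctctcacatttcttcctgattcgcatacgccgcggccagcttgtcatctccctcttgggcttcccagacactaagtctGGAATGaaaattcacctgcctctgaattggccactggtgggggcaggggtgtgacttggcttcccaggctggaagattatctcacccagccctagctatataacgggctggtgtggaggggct
Fhl1: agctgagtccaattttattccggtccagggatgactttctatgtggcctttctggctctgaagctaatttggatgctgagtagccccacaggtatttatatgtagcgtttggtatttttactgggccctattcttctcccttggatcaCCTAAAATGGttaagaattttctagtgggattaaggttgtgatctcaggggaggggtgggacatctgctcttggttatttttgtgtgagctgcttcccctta
Sprr1a: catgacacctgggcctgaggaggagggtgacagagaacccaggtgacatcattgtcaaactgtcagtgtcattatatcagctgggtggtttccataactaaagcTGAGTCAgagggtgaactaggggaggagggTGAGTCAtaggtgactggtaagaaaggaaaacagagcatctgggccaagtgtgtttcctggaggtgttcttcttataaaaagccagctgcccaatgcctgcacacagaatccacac
Xirp2: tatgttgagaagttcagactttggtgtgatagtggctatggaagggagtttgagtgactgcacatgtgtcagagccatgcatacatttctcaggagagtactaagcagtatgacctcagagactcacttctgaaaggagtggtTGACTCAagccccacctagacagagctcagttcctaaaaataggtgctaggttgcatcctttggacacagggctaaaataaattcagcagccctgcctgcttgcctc

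Of the 321 genes called higher, 234 had such a window, and 12.8% of these held an MCAT motif, 2.99% a CArG box and 8.97% an AP-1 motif. The shares were 14.4%, 0.962% and 7.69% over the 104 genes called lower that had a window. Over all 10420 tested genes with a window they were 10.7%, 1.18% and 4.17%. These are counts of letters in windows and do not show binding.

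Structural muscle genes differed less. Of 18 contractile genes none was called, and 5 lay entirely lower and 1 entirely higher in high hearts (7.7% and 7.64% of all genes). The median log2 fold change was -0.14. Tnni3, the cardiac inhibitory troponin, had 2232 to 3920 CPM in high hearts and 4722 to 5695 CPM in low hearts, a log2 difference of -0.65 ± 0.14. Myl2, the ventricular regulatory light chain, differed by -0.51 ± 0.15, also with no overlap. Tnnt2 and Actc1, cardiac troponin T and cardiac actin, overlapped. Des, the intermediate filament desmin, was on the other side, with 4803 to 7583 CPM in high hearts, 3211 to 4302 CPM in low hearts and 3004 to 3269 CPM in Sham hearts.

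Of 19 cardiomyocyte marker genes none was called, 8 lay entirely lower and 1 entirely higher (7.7% and 7.64% of all genes). Their median log2 fold change was -0.29. Their summed level was 64715 to 101130 CPM in high hearts and 111670 to 123350 CPM in low hearts. Sham hearts had 116550 to 132200 CPM. Replicate 10 was the lowest, and without Sham replicate 5 the lowest Sham sum was 125480 CPM, above every low heart. In bulk tissue, fewer cells of a type and less RNA per cell cannot be told apart. This sum moved with the lower levels of the muscle, ion-channel and metabolic genes described below, and its part in them was not tested. Of the atrial genes checked against the left ventricular label, Sln and Myl7 were at or below 0.209 CPM in every non-transgenic heart used here. Myl4, a further atrial marker, had enough counts to be fitted, with a log2 difference of 0.53, below the fold minimum.

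Mir208b lies inside Myh7 and is usually transcribed with it, yet the 2 differed in opposite directions. It had 2.82, 4.10, 5.44, 3.02 and 1.35 CPM in high hearts, against 12.1, 8.35, 8.73, 11.1 and 10.2 CPM in low hearts, with Sham hearts at 9.77 to 14.3 CPM. The classes did not overlap, and the log2 fold change was -1.60 ± 0.27. These counts come from mRNA libraries and do not measure the mature microRNA, and reads of overlapping genes cannot be told apart, because the strand setting of the counting is not given in the sources used here. Its mature product, shown with the seed in capitals because that stretch pairs with target messages, comes from RefSeq GRCm38.p6 at chr14:54975710-54975731 (minus strand).
mmu-miR-208b-3p: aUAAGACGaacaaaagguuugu

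Extracellular matrix genes were higher in high hearts. All 20 tested collagen genes had positive log2 fold changes, with a median of 1.30, and 12 were called higher. Summed collagen levels were 4008 to 8845 CPM in high hearts, 2181 to 3002 CPM in low hearts and 2233 to 2799 CPM in Sham hearts, so low hearts lay within or close to the Sham range. Col1a1, a chain of fibrillar type I collagen, had 681, 890, 412, 545 and 1380 CPM in high hearts, against 139, 174, 272, 203 and 253 CPM in low hearts. Its log2 fold change was 1.91 ± 0.33, and Sham hearts had 176 to 204 CPM. Col3a1, the type III fibrillar chain, differed by 1.72 ± 0.32. The largest called differences of the list were those of Col12a1, a fibril-associated collagen (3.62 ± 0.52), Col8a2 (3.44 ± 0.45) and Col8a1 (2.43 ± 0.39), 2 chains of a short network-forming collagen.

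Matricellular proteins, which signal within the matrix rather than build it, had 10 of 21 tested genes called higher and none lower (median 1.22). Postn (periostin) had 872, 842, 455, 510 and 1427 CPM in high hearts, against 34.3, 73.8, 110, 65.2 and 123 CPM in low hearts. Sham hearts had 32.9 to 51.7 CPM. The lowest high heart was above the highest low heart, and the log2 fold change was 3.34 ± 0.43. Thbs4 (thrombospondin 4) and Comp, 2 pentameric members of one family, had log2 fold changes of 3.96 ± 0.40 and 3.89 ± 0.43. Thbs4 had 56.5 to 220 CPM in high hearts, 5.15 to 14.5 CPM in low hearts and 3.98 to 6.38 CPM in Sham hearts. Cilp, a cartilage matrix protein also made by cardiac fibroblasts, had 145 to 266 CPM in high hearts and 10.7 to 37.9 CPM in low hearts (3.15 ± 0.33). Ccn2, the connective tissue growth factor, had 1401, 646, 279, 306 and 1160 CPM in high hearts, against 97.4 to 161 CPM in low hearts (2.50 ± 0.47).

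Of 16 microfibril and elastic fibre genes, 6 were called higher and 2 lower. Ltbp2, a latent TGF-beta binding protein family member of elastic fibres, had 173, 160, 71.0, 75.8 and 289 CPM in high hearts, against 3.65, 7.19, 13.6, 8.89 and 21.3 CPM in low hearts. The difference was 3.82 ± 0.56, with Sham hearts at 1.57 to 3.46 CPM. Mfap5 and Mfap4, microfibril-associated glycoproteins, differed by 2.29 ± 0.33 and 1.83 ± 0.36. Fn1, fibronectin, differed by 1.64 ± 0.38.

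Collagen processing genes had 8 of 17 tested members called higher (median 0.92), and proteoglycans had 3 of 11. Lox, the lysyl oxidase that cross-links collagen and elastin, had 70.1, 76.3, 18.7, 29.3 and 152 CPM in high hearts and 4.31 to 6.61 CPM in low hearts (3.64 ± 0.59). Low and Sham hearts overlapped, with Sham hearts at 2.49 to 5.29 CPM. Loxl3, a lysyl oxidase relative, differed by 2.05 ± 0.32. The proteoglycans called were Fmod (fibromodulin, 3.32 ± 0.34), Vcan (versican, 1.99 ± 0.25) and Bgn (biglycan, 1.53 ± 0.26). Timp1, an inhibitor of matrix metalloproteinases, had 47.9, 53.3, 19.8, 21.1 and 90.6 CPM in high hearts and 2.62 to 6.41 CPM in low hearts (3.30 ± 0.49). It was 1 of 4 genes called higher among 16 metalloproteinases and inhibitors.

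Of 25 tested fibroblast genes, 12 were called higher and none lower (median 1.22). Cthrc1, a secreted protein of activated fibroblasts, had 3.71, 13.2, 2.44, 2.93 and 27.2 CPM in high hearts, against 0.281 to 0.69 CPM in low hearts, where it rests on 23 counts in all. Its log2 fold change was 4.42 ± 0.92, and 3.59 without replicate 10. Meox1, a homeobox factor of activated cardiac fibroblasts, had 119, 117, 55.4, 82.9 and 122 CPM in high hearts, against 22.6, 24.2, 25.1, 27.7 and 19.3 CPM in low hearts. Sham hearts had 16.7 to 22.2 CPM, which the low hearts overlapped. Pdgfra, Tcf21 and Dpt, markers of resident fibroblasts, overlapped between the classes, and their log2 differences were 0.12 ± 0.09, 0.27 ± 0.18 and -0.13 ± 0.14. A list of cartilage, tendon and bone genes had 5 of 6 tested members called higher (median 2.44), of which Comp, Cilp and Fmod are described above.

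**Figure D3:**
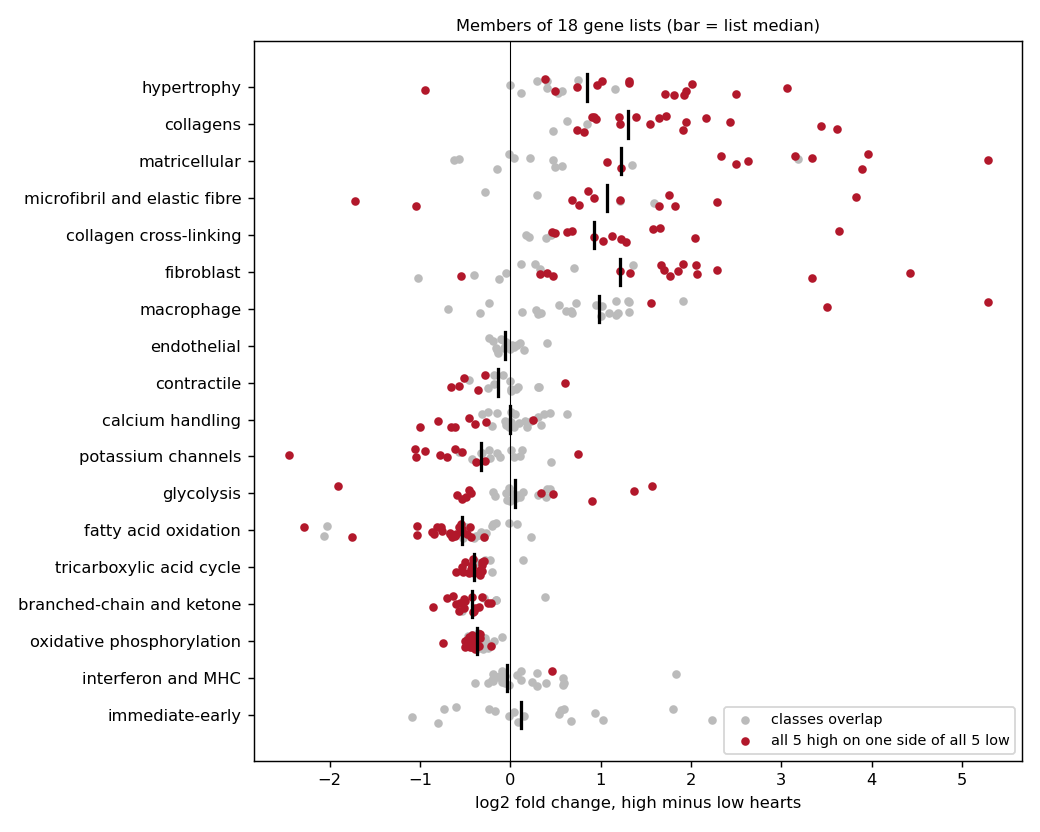
Log2 fold change of high minus low hearts (horizontal axis) for the tested members of 18 gene lists, 1 point per gene, red where all 5 high hearts lie on one side of all 5 low hearts, with a bar at each list's median. The collagen, matricellular, microfibril and cross-linking lists have medians between 0.92 and 1.30, and the 4 mitochondrial lists have medians between -0.53 and -0.37.

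Among 26 genes of TGF-beta signalling, 6 were called higher and 1 lower. Tgfb2, a ligand, had 111, 120, 51.4, 69.8 and 161 CPM in high hearts, against 29.4, 27.6, 31.4, 27.9 and 30.4 CPM in low hearts (1.81 ± 0.27). Fstl3, a secreted inhibitor of activin and myostatin, differed by 2.39 ± 0.40. Gdf15, a divergent ligand of the family and a circulating stress marker, had 31.5, 51.3, 13.3, 13.3 and 28.5 CPM in high hearts, against 1.03, 3.21, 2.62, 2.90 and 2.07 CPM in low hearts (3.55 ± 0.47). Growth factor genes had 4 of 21 called higher and 1 lower. Hbegf, an EGF receptor ligand, differed by 1.39 ± 0.33. Ctf1, the cytokine cardiotrophin 1, was the member called lower, at 2.53 to 7.03 CPM in high hearts and 9.62 to 14.2 CPM in low hearts.

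Hormonal genes of vessel tone had 2 of 17 members called higher. They were Ace, the angiotensin-converting enzyme (1.06 ± 0.17), and Edn3, an endothelin (1.29 ± 0.28). Edn3 was graded, with 25.1 to 47.9 CPM in high hearts, 7.39 to 19.3 CPM in low hearts and 1.36 to 6.10 CPM in Sham hearts. Npr3, the clearance receptor of natriuretic peptides, had 24.6 to 39.5 CPM in high hearts and 12.7 to 20 CPM in low hearts. Its log2 difference of 0.97 ± 0.16 was just short of the fold minimum.

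Wnt pathway genes had 3 of 12 members called higher, all secreted modulators: Dkk3 (2.2 ± 0.25), Frzb (2.06 ± 0.27) and Sfrp1 (1.86 ± 0.31). Sfrp2, another, overlapped, with 13.7 to 51.6 CPM in high hearts, 6.65 to 20.1 CPM in low hearts and 3.87 to 5.27 CPM in Sham hearts. Of 27 transcription factors, 4 were called higher and 1 lower. Runx1, a factor of blood and dedifferentiating muscle cells, differed by 1.77 ± 0.35, and Tbx15, a T-box factor, by 1.47 ± 0.25.

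Macrophage genes leaned higher but mostly overlapped. Of 26 tested, 23 had positive log2 fold changes (median 0.98) and 3 were called higher, which became 6 without replicate 6 and 2 without replicate 10. Their summed level was 542 to 1652 CPM in high hearts, 320 to 708 CPM in low hearts and 371 to 490 CPM in Sham hearts. Spp1 (osteopontin), a secreted matrix protein of macrophages and other cells, had 8.47, 8.44, 1.97, 4.95 and 96.2 CPM in high hearts, against 0.468 to 0.888 CPM in low hearts, where it rests on 31 counts. Its log2 fold change was 5.28 ± 1.39, and 3.26 without replicate 10. Lgals3 (galectin 3) had 54.6, 31.6, 10.4, 15.3 and 182 CPM in high hearts and 2.62 to 7.29 CPM in low hearts (3.50 ± 0.85, and 2.43 without replicate 10). Trem2, a macrophage lipid receptor, had 24.5 CPM in replicate 10 and 4.95 to 6.39 CPM in the other high hearts, and its log2 fold change was 1.56 ± 0.54, or 0.82 without that heart. Cd68, C1qa and Csf1r, which define the cell type, all overlapped.

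Without replicate 10 the median of the macrophage list was 0.49. Neutrophil and lymphocyte genes were scarce in the TAC hearts. S100a8 was at or below 0.400 CPM in each, and none of 6 lymphocyte or 6 granulocyte and mast cell genes tested was called. Chemokine genes had 2 of 16 called higher, 1 of them Ccl12, a monocyte-attracting chemokine (2.10 ± 0.49). None of 26 interferon and antigen-presentation genes was called. Endothelial genes overlapped throughout, with 0 of 17 lying entirely on one side, against 15.3% of all genes. Without replicate 3 or 6, 1 lay entirely lower, and among name numbers under 100, 2 did. Pecam1, Cdh5 and Kdr, adhesion and growth factor receptor genes of the vessel lining, had log2 differences of 0.11 ± 0.11, -0.07 ± 0.08 and -0.24 ± 0.20. None of 14 mural cell or 19 angiogenesis genes was called.

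**Figure D4:**
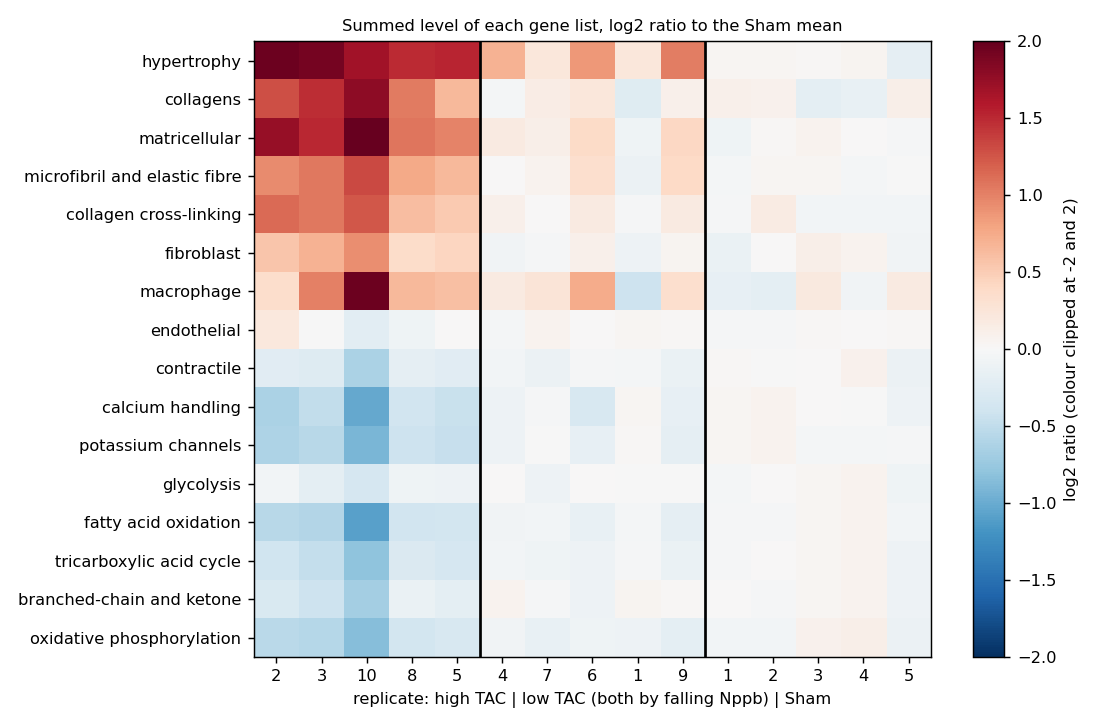
Summed TMM-scaled CPM of 16 gene lists as log2 ratios to the Sham mean (colour), 1 column per heart, with high TAC hearts at the left, low TAC hearts in the middle and Sham hearts at the right. Matrix and hypertrophy sums are above Sham in every high heart, mitochondrial sums are below it, and replicate 10 is the most extreme in most lists.

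Several ion-channel genes were lower in high hearts. Of 24 potassium channel genes, 3 were called lower (1 without replicate 2), none higher, and the median log2 fold change was -0.32. Kcnip2, the beta subunit of the transient outward current that shapes early repolarisation, had 126, 138, 217, 198 and 109 CPM in high hearts, against 344, 303, 336, 322 and 335 CPM in low hearts. Low and Sham hearts overlapped (313 to 362 CPM in Sham), and the log2 fold change was -1.06 ± 0.17. Kcnd2, a pore-forming subunit of that current, had 7.12 to 13.1 CPM in high hearts and 14 to 21.5 CPM in low hearts (-0.94 ± 0.18). Kcnj3, a G-protein-gated inward rectifier, differed by -1.04 ± 0.23, and Kcnv2, a modifying subunit, by -2.45 ± 0.41. Scn4b, a sodium channel beta subunit, was the 1 conduction gene of 16 called lower (-1.18 ± 0.37, and not called without replicate 2). Gja1, the gap junction protein connexin 43, overlapped.

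No calcium handling gene of 29 was called, but 7 lay entirely lower and 1 entirely higher (7.7% and 7.64% of all genes). One gene was called lower when replicate 4, 5, 6 or 8 was left out. Atp2a2, the sarcoplasmic reticulum calcium pump, had 8073, 9418, 9443, 9693 and 4789 CPM in high hearts, against 15647, 13102, 9925, 14295 and 12418 CPM in low hearts. Low heart 6 lay just above the highest high heart, and the log2 difference was -0.66 ± 0.18. Pln, the pump's inhibitor phospholamban, differed by -0.61 ± 0.13 with no overlap. Ryr2, the calcium release channel, overlapped (-0.31 ± 0.10).

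Most mitochondrial energy genes had lower means in high hearts, and few reached the call. All 57 oxidative phosphorylation genes had negative log2 differences (median -0.37). Of these, 27 lay entirely lower, against 7.7% of all genes, or 47 without replicate 5. None reached 2-fold. In 44 of the 57, all high hearts were below all Sham hearts, and in none were all low hearts (49 and 8 of the 57 without Sham replicate 5). Over all genes the shares were 12% and 1.05% (14% and 1.88% without Sham replicate 5). The count of 0 for low hearts is thus near the share over all genes. Cox7a1, a muscle subunit of cytochrome c oxidase, had 218, 244, 349, 285 and 169 CPM in high hearts, against 429, 436, 476, 408 and 370 CPM in low hearts (-0.74 ± 0.16). Sdha, a subunit of succinate dehydrogenase, had 799 to 1160 CPM in high hearts and 1266 to 1591 CPM in low hearts (-0.51 ± 0.11). Of 23 tricarboxylic acid cycle genes, 22 had negative log2 differences and 17 lay entirely lower (median -0.40). Of 22 branched-chain amino acid and ketone genes, 21 were negative and 17 lay entirely lower (median -0.42). The share lying entirely lower over all genes was 7.7%, as given above. None of either list was called.

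Fatty acid oxidation genes had the lowest median of the metabolic lists, -0.53 over 38 genes. Entirely lower were 22, against 7.7% of all genes. Of these, 4 were called, or 2 without replicate 7, against 1.05% of all genes called lower. Acaa2, the last thiolase step of the beta-oxidation spiral, had 255, 330, 477, 451 and 198 CPM in high hearts, against 774, 660, 669, 810 and 601 CPM in low hearts (-1.04 ± 0.22). Acot1, a thioesterase that frees fatty acids from coenzyme A, had 1.94 to 3.30 CPM in high hearts, 4.47 to 13 CPM in low hearts and 12.4 to 13.8 CPM in Sham hearts (-1.75 ± 0.31). Acsm5, a medium-chain acyl-CoA synthetase, differed by -2.28 ± 0.43. Bdh1, the ketone-oxidising enzyme, differed from these. It had 299 to 450 CPM in high hearts and 201 to 333 CPM in low hearts, which overlapped, and 117 to 160 CPM in Sham hearts, below every TAC heart.

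Glycolysis genes had no common direction, with 5 of 26 entirely higher and 6 entirely lower (7.64% and 7.7% of all genes). Pfkp, the platelet form of phosphofructokinase, had 327, 227, 128, 144 and 196 CPM in high hearts and 73.6 to 84.1 CPM in low hearts (1.37 ± 0.22). Slc16a3, a lactate exporter, differed by 1.57 ± 0.40. Pfkfb1, an isoform of the enzyme that makes and breaks the phosphofructokinase activator, had 3.27, 4.18, 12.9, 9.98 and 4.63 CPM in high hearts, against 35.5, 19.4, 21.5, 29.0 and 24.4 CPM in low hearts (-1.91 ± 0.36). Fbp2, muscle fructose bisphosphatase, which runs the opposing step, differed by -1.70 ± 0.38. Pdk4, which blocks pyruvate entry to the mitochondria, overlapped between the classes, with 70.5 to 289 CPM in high hearts and 66.1 to 366 CPM in low hearts.

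The gene with the largest difference in energy cofactor metabolism was Nmrk2, a nicotinamide riboside kinase that makes an NAD precursor. It had 528, 121, 34.5, 51.5 and 192 CPM in high hearts, against 5.34, 6.90, 6.22, 7.89 and 6.51 CPM in low hearts. Sham hearts had 5.19 to 11 CPM, so low hearts lay at the Sham level. The log2 fold change was 4.82 ± 0.82, and 3.93 without replicate 2. Nampt, the main NAD salvage enzyme, was on the other side with no overlap (-0.70 ± 0.10). Ckm, muscle creatine kinase, had 657 to 1359 CPM in high hearts and 1624 to 1806 CPM in low hearts (-0.66 ± 0.16). Of 35 stress-response genes of the endoplasmic reticulum and amino acid supply, Gdf15 and Nupr1 (1.85 ± 0.37), a stress-induced chromatin protein, were the 2 called higher.

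Several of the genes with large negative differences have roles outside contraction. Penk, the precursor of enkephalin opioid peptides, had 0.618, 0.552, 3.75, 1.83 and 0.142 CPM in high hearts, against 13.7, 8.94, 9.49, 11.8 and 7.89 CPM in low hearts (-2.97 ± 0.53, and -3.77 without replicate 5). Ces1d, a carboxylesterase that hydrolyses stored lipid esters, had 2.91, 13.3, 22.2, 12.1 and 1.57 CPM in high hearts, against 101, 55.7, 49.5, 77.8 and 50.3 CPM in low hearts (-2.70 ± 0.58). Its Sham values were 96.4 to 114 CPM. Inmt, an amine methyltransferase, differed by -2.19 ± 0.68, and by -3.26 without replicate 5, the high heart with 12.7 CPM. Clcn1, the muscle chloride channel, differed by -2.19 ± 0.39. Scara5, a ferritin receptor of fibroblasts (-1.81 ± 0.46), Lgals4, a galectin (-1.81 ± 0.33), Klhl33, a kelch-like protein (-1.69 ± 0.36) and Gfra4, a receptor of the GDNF family (-1.69 ± 0.20), completed, with Pfkfb1, Acot1, Fbp2 and Mir208b, the 12 largest among separated genes with a mean of at least 5 CPM. Tubb3, a tubulin of neurons, was among the 12 largest positive differences by the same minimum (3.61 ± 0.82), with 52.1 CPM in replicate 10 and 4.30 to 13.2 CPM in the other high hearts. Without replicate 10 it was 2.56.

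Cell cycle genes had a median of 0.97 with 20 of 22 positive, but only Tyms was called higher. Without low heart 6, 8 genes were called higher, and without high heart 10 none was called higher. Cenpf, a kinetochore protein, went the other way, at 3.24 to 5.90 CPM in high hearts, 6.22 to 18.8 CPM in low hearts and 21.2 to 34.0 CPM in Sham hearts. Of the remaining lists, no gene was called among 24 phosphodiesterase and adrenergic genes, 14 atrophy genes, 18 immediate-early genes, 18 circadian genes, 4 erythroid genes or 2 adipocyte genes. With 3.49% of all genes called, a count of 0 in lists of these sizes is near the share over all genes. Leaving out replicate 5 gave 3 immediate-early genes called higher and 4 stress-response genes in place of 2, and leaving out replicate 2 gave 5 Wnt genes in place of 3. A single gene was called in the interferon list without replicate 6, in the granulocyte and circadian lists without replicate 5, in the angiogenesis list without replicate 5 or 9, and in the phosphodiesterase list without replicate 2. The 2 vessel-tone genes called higher became 1 to 3 when each of the 10 hearts was left out in turn. Among name numbers under 100, 0 vessel-tone genes were called, and 3 lay entirely higher. Without replicate 9, 1 vessel-tone gene was also called lower. One of 28 heat shock and antioxidant genes was called higher, or 3 without replicate 8, and 1 each way of 8 atrial and fetal genes. Of 4 epicardial genes 2 were called higher, while Msln and Upk3b, the defining mesothelial markers, were scarce except for 6.18 and 3.62 CPM in high heart 2. Wt1, another epicardial marker, had a log2 difference of 0.09, from -0.14 without replicate 2 to 0.26 without replicate 10. Of 6 nerve genes 2 were called higher and 1 lower.

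The called genes were also set against the control operation. High and low hearts share these Sham libraries, most of which had a name number of 100 or more, unlike most TAC hearts. Of the 321 genes called higher, 277 had all 5 high hearts above all Sham hearts (306 without Sham replicate 5). All 5 low hearts were above all Sham hearts in 22 of the 321 (31 without Sham replicate 5). Over all 13110 genes, high hearts lay entirely above Sham in 1526 (11.6%) and low hearts in 176 (1.34%). Of the 137 genes called lower, 124 had all high hearts below all Sham hearts and 19 had all low hearts below them (126 and 23 without Sham replicate 5), against 1568 (12%) and 137 (1.05%) over all genes. Without Sham replicate 5, high hearts lay entirely above Sham in 1825 genes (13.9%) and entirely below in 1834 (14%), and low hearts in 248 (1.89%) and 246 (1.88%). The low mean lay between the Sham and high means in 240 of the 321 and in 114 of the 137. The call itself set the high and low means apart, and this count was not made over all genes. No grading is read from it.

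Change with the level of Nppb was then tested in hearts that the split did not use. This was a slope and does not repeat the high against low comparison. In the 10 TG TAC hearts, Nppb ran from 141 to 420 CPM, so all were under the 500 CPM threshold. Each of 12250 genes was fitted against log2 Nppb with edgeR's quasi-likelihood test, two-sided. No gene passed an adjusted p of 0.05 (0%), with a lowest adjusted p of 0.0747, and 1269 (10.4%) had an unadjusted p under 0.05. DESeq2 called 44 genes and limma voom none, with 1166 and 1282 at an unadjusted p under 0.05. The genes are not independent of each other, so the shares that follow carry no test.

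Of the 321 genes called higher, 223 were tested there and 191 (85.7%) had a positive slope, against 49.8% of all genes. Of the 137 called lower, 124 were tested and 110 (88.7%) had a negative slope, against 50.2% of all genes. An unadjusted p under 0.05 in the same direction was found for 54 (24.2%) and 39 (31.5%), against 5.37% and 4.99% of all genes. These shares depended on TG TAC replicate 1, which had 145 CPM of Nppb and the only name number of 100 or more in its group. Without it, 60.1% and 69.4% kept the direction, against 50.7% and 49.3% of all genes, and 9.01% and 12.1% had such a p, against 5.96% and 4.87% of all genes. TG TAC replicate 10 had the lowest Nppb, 141 CPM, and without that heart 88.0% and 88.7% kept the direction. What set replicate 1 apart was not tested.

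**Figure D5:**
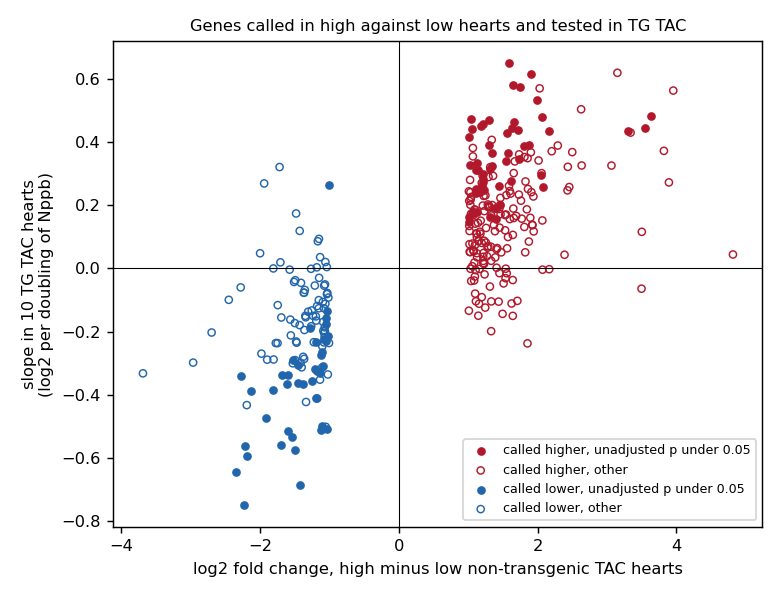
Slope in the 10 TG TAC hearts (vertical axis, log2 per doubling of Nppb) against the log2 fold change of high minus low non-transgenic TAC hearts (horizontal axis), 1 point per called gene, filled where the unadjusted p of the slope is under 0.05. Of 223 genes called higher 191 have a positive slope, of 124 called lower 110 have a negative slope, and no slope passes the adjusted threshold.

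By list, all 18 collagen genes tested in TG TAC hearts had positive slopes, and 16 of 19 did without replicate 1. Of 22 fibroblast genes 19 were positive, and 16 of 23 without it. The fatty acid oxidation genes did not keep their direction, with 29 of 38 negative in all 10 hearts and 10 of 38 without replicate 1. Macrophage genes also turned, with 18 of 24 positive in all and 9 of 24 without it. Oxidative phosphorylation genes had 48 of 57 negative slopes, and 33 of 57 without it. Over all genes 49.8% of slopes were positive, and 50.7% without it. Lists with no call in high against low hearts also leaned. Positive slopes were found for 15 of 17 endothelial, 23 of 25 interferon and 6 of 18 circadian genes. Without replicate 1 these counts were 14, 18 and 5. Mostly positive slopes were thus not particular to the matrix lists.

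The TG TAC slopes of single genes are per doubling of Nppb and are not on the scale of the high against low fold changes. Klhl33 had a slope of -0.56 per doubling of Nppb (unadjusted p = 3.05e-05, adjusted p = 0.0747, edgeR) and Pfkfb1 had a slope of -0.47 (unadjusted p = 7.64e-05, adjusted p = 0.0851, edgeR), neither past the threshold. Vcan had a slope of 0.53 (edgeR, unadjusted p = 0.0019), Col3a1 0.44 (0.0128) and Timp1 0.44 (0.012). Myh7, which separated the non-transgenic classes, had a slope of -0.10 (unadjusted p = 0.131), and Nppa one of 0.33 (0.592).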

How the data were processed

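Left ventricular RNA of 30 mouse hearts was sequenced as strand-specific mRNA libraries, per the labels' protocols. The submitters' processing notes name Trim Galore 0.6.4 and TopHat, with Bowtie2 2.2.9, the build mm10 and an edgeR release, 3.17, without giving their roles. The counting program and its strand setting are not given in the sources used here. The authors deposited raw counts per gene and, in a second file, CPM, which equal counts divided by the library total. Each file lists 24467 gene IDs, of which 24437 matched a RefSeq symbol.

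Classes came from the deposited CPM of Nppb. All fits used edgeR 4.0.16 under R 4.3.3. TMM factors came from all 30 libraries, and genes were kept by filterByExpr with a minimum count of 10. The 10 non-transgenic TAC libraries were fitted with class as the term, giving log2 fold changes and standard errors but no test. The 10 TG TAC libraries were fitted with log2(Nppb CPM + 1) as the term and tested with Benjamini-Hochberg adjustment over 12250 genes. The smallest level of 3 counts corresponds to 0.229 to 0.325 CPM. Replicate libraries differed beyond sampling noise in all 45 pairs of non-transgenic TAC libraries (chi-square per degree of freedom 4.47 to 106). The scripts were tested on simulated data.

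The members, the 45 gene lists and the named genes were chosen with earlier results of these data known. Named genes were the 12 largest differences each way among separated genes with a mean of at least 5 CPM, the 3 largest separated members of each list, and a set of hypertrophy, matrix and metabolic genes. Some of these genes are not reported here. Alternatives were RLE and upper-quartile factors, other filters, DESeq2 1.42.0, limma 3.58.1 (voom, and trend on the CPM), other fold minimums, Nppb as a continuous term, the library total as a covariate, and leaving out each library. Thinned counts, leaving out replicates 5 and 8, libraries with a name number under 100 and leaving out Sham replicate 5 were added after seeing the data.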

Additional observations from a re-analysis of the deposited data

Results flagged for a closer look

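For the 111 genes named, the library totals and Nppb, the high, low and Sham hearts were searched for a single heart far from the other 4, with a gap to its nearest neighbour above 0.71 of the whole range. Of 338 groups, 25 had one, where chance alone gives about 1 in 20. High heart 10 stood far above the other high hearts in Spp1 (96.2 CPM), Lgals3 (182 CPM), Trem2 (24.5 CPM), Cd68 (84.3 CPM), Fn1 (457 CPM) and Tubb3 (52.1 CPM). High heart 2 stood above them in Pecam1 (314 CPM), Msln (6.18 CPM) and Upk3b (3.62 CPM), and high heart 3 in Sox10 (1.58 CPM). Myl7 was at 0 CPM in high heart 10, with the other high hearts at 1 count each.

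Low heart 9 was above the other low hearts in Comp (11.2 CPM) and Tbx15 (3.75 CPM), low heart 6 was below them in Ryr2 (895 CPM), and low heart 1 alone had a count of Sln (0.0937 CPM). Sham heart 5 was apart in Cd3e (17.1 CPM), Cd8a (42.2 CPM), Runx1 (6.31 CPM), Fstl3 (2.75 CPM), Pdk4 (280.04 CPM) and Sdha (1466 CPM, the lowest). The other Sham hearts that stood apart were replicate 2 in Nppa (461 CPM), replicate 4 in Gfra4 (19.2 CPM), replicate 1 in Ckm (1925 CPM) and replicate 3 in Sln (0.105 CPM). No cause of these single values was tested.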

How the results depend on the processing

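Against the 321 genes called higher and 137 called lower, a fold minimum of 1.5 gave 582 and 369 genes, and no fold minimum gave 1002 and 1009. Without replicates 5 and 8 together there were 580 and 346. Leaving out each library in turn gave 269 to 424 genes higher and 119 to 224 lower, with the most lower calls when replicate 5 was left out, and 374 to 457 of the 458 calls were shared. Fewer samples make separation easier to reach. RLE and upper-quartile factors, both filters, DESeq2, limma voom, limma-trend, the continuous term, thinned counts and name numbers under 100 stayed within 1.5 times of both counts. Of 3519 values of 160 named genes under the alternatives, 3497 had the reported sign, and none of the opposite ones belonged to a called gene. In TG TAC hearts, edgeR called 0 genes, 5 with a positive and 4 with a negative slope without a filter, and DESeq2 called 25 and 19. Of the called genes, 4 and 10 passed there in the same direction. Leaving out each TG TAC library gave 0 to 3 positive, 0 to 4 negative and 0 to 3 called genes, and 60.1 to 90.7% and 69.4 to 91.9% with the same sign. Name numbers under 100 alone, the same libraries as without TG TAC replicate 1, gave 1 positive and 1 negative. The cause was not tested. No paired analysis was possible because high and low hearts are replicates of one group and share no replicate numbers. Depth limits genes near 3 counts per library.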

Other observations

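Further called genes came from lists with few calls. Gpx3, a secreted glutathione peroxidase, had 1064, 1023, 750, 648 and 1579 CPM in high hearts, against 376, 376, 440, 421 and 476 CPM in low hearts and 252 to 339 CPM in Sham hearts (log2 fold change 1.28 ± 0.21, SE). The 3 groups did not overlap. Cx3cl1, the membrane-bound chemokine fractalkine, had 28.3 to 72.9 CPM in high hearts and 16.7 to 25.3 CPM in low hearts, where it overlapped Sham hearts. Ankrd2, a muscle ankyrin repeat protein related to Ankrd1, had 2.62 to 5.65 CPM in high hearts and 0.200 to 1.64 CPM in low hearts. Aldh1a2, an enzyme of retinoic acid synthesis, had 12.7 to 31.7 CPM in high hearts and 2.34 to 9.93 CPM in low hearts.

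Ncam1, a neural adhesion molecule also found on stressed muscle cells, had 6.05 to 22.6 CPM in high hearts and 2.90 to 5.46 CPM in low hearts. Sox10, a transcription factor of Schwann cells, went the other way, with 1.15, 1.58, 1.03, 1.10 and 1.14 CPM in high hearts, against 4.03, 3.50, 2.40, 3.60 and 3.35 CPM in low hearts (-1.48 ± 0.22). The classes did not overlap for either gene.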
